A study of Homo sapiens with 12 samples.

Results

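The genes described here are 9 of the VEGF system: the ligands VEGFA, VEGFB, VEGFC and PGF, the neuropilin co-receptors NRP1 and NRP2, and the receptor tyrosine kinases FLT1 (VEGFR1), KDR (VEGFR2) and FLT4 (VEGFR3). They were taken by symbol from the deposited table of raw counts, which has 57500 genes, and all 9 were found there. The study sequenced total RNA, depleted of ribosomal RNA and treated with DNase, from 3 human cancer cell lines. The libraries form 4 groups of 3 biological replicates each. SW480, from a primary colorectal tumour, and SW620, from a metastasis of the same patient, were grown untreated in DMEM. PEO4, an ovarian cancer line, was grown in RPMI, either as control or with 10 ng/mL TGF-β for 6 days. Both media held 10% fetal bovine serum. Each condition is thus represented by 1 line in culture, and a difference between SW620 and SW480 is a difference between those lines. The title of the study names cediranib, a drug that inhibits VEGF receptor kinases, but no library analysed here was treated with it.

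VEGF ligands are secreted growth factors that drive the growth of blood and lymphatic vessels by activating receptor kinases on endothelial cells. VEGFA binds KDR and FLT1, VEGFB and PGF bind FLT1, and VEGFC binds mainly FLT4 and, once processed, KDR. Neuropilins lack a kinase; they bind VEGF forms beside the kinases and, with plexins, also receive class 3 semaphorins, which guide axons and repel endothelial cells. Tumour cells are a known source of VEGFA, and carcinoma cells often carry neuropilins.

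The libraries held 14531420 to 22028956 counts. Levels are given as CPM, the counts per 1000000 counts of the library after TMM scaling over the 12 libraries; the floor of 3 counts stood at 0.136 to 0.206 CPM before that scaling. The intestinal transcription factor CDX2 averaged 18.7 (SW480) and 18.3 CPM (SW620) in the colorectal lines and had at most 3 counts in any PEO4 library, while PAX8, a Müllerian lineage factor, averaged 555 and 579 CPM in the PEO4 groups against 44.3 and 45.7 CPM in the SW lines. An estimated 1.26% of the counts of SW620 replicate 3 resembled PEO4, from 17 genes that the other SW libraries nearly lacked, against 0.0833% to 0.583% in the other SW libraries. By that estimate 1.78% of the VEGFA counts and 4.43% of the NRP2 counts of SW620 replicate 3 could be carried over. For VEGFA the share was larger in SW480 replicate 2, at 3.62%. The 5 calls between the SW lines are also given without SW620 replicate 3. In bulk RNA, fewer cells with a transcript and less of it per cell cannot be told apart.

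In SW620 against SW480, the VEGFA ligand was higher, and the ligand VEGFB, both neuropilins and the receptor FLT1 were lower. Of the 9 genes, 6 had enough counts to be tested, and 5 passed edgeR's quasi-likelihood test at a threshold of 0.05, Benjamini-Hochberg adjusted over all genes, 1 higher and 4 lower. Over all 20941 genes tested, 30.5% passed, 13.5% higher and 17.0% lower. The levels of all 5 did not overlap between the lines, in the direction of the call, which was so for 19.9% of all genes upward and 24.0% downward. VEGFC, FLT4 and KDR were too low to test. FLT1 reached the test only through its counts in SW480, so a tested FLT1 had to differ, and the share of tested genes that passed is not evidence about the 9 genes.

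The promoter windows of the 3 genes that were lower in SW620 and matched in the RefSeq table are shown first, because they are the regulatory DNA next to the starts of these transcripts. NRP2 lies at chr2:205682251-205682550 on the + strand, VEGFB at chr11:64234334-64234633 on the + strand and FLT1 at chr13:28495079-28495378 on the - strand (GRCh38.p14, 5′ to 3′ on the gene's strand). Each window runs from 250 bases before to 50 bases after the RefSeq start, and capitals mark the GC box GGGCGG or its reverse complement CCGCCC, overlapping matches included.
NRP2: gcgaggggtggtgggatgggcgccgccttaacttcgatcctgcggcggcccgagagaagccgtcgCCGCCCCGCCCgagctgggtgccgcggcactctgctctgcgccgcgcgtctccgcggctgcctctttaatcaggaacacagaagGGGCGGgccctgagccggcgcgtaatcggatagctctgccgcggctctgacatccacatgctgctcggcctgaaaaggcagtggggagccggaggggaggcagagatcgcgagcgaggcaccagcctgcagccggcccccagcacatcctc
VEGFB: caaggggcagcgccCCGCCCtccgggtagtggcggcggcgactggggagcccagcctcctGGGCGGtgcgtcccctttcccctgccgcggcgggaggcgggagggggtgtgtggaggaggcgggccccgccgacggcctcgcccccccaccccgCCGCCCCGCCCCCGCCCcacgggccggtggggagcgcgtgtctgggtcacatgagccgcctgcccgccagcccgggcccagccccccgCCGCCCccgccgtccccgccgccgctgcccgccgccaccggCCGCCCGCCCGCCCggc
FLT1: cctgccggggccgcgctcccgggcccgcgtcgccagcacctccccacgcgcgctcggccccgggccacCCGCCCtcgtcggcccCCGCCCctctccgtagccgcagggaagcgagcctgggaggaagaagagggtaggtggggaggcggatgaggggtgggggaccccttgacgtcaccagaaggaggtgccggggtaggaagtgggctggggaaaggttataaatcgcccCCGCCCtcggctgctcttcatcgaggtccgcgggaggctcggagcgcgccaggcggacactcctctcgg
The VEGFB window held 9 GC boxes, and the NRP2 and FLT1 windows held 3 each. GC made up 84.7% of the VEGFB window, 70.0% of the NRP2 window and 73.3% of the FLT1 window. At least 1 GC box stood in 45% of the 35116 RefSeq promoter windows, so its presence does not set these genes apart. The letters ACGTG (core of the hypoxia response element), TGANTCA (AP-1) and GGAATG (TEAD), searched on both strands, occurred in none of the 3 windows. Over all windows they occurred in 21.4%, 7.71% and 14% respectively. Windows matched for 6 of the 9 genes, the others being KDR, VEGFC and PGF; VEGFA, NRP1 and FLT4 were not matched. No peak or methylation value bears on these windows here, and a match is only a description of the letters.

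VEGFA (ENSG00000112715, chr6:43770184-43786487 on the + strand of GRCh38 in GENCODE 29) encodes the principal angiogenic ligand. Its level was 33.4, 37.3 and 39.4 CPM in the 3 SW480 libraries and 168, 129 and 195 CPM in the 3 SW620 libraries. Every SW620 library was above every SW480 library by a wide margin. The log2 fold change was 2.18 ± 0.19 (SE, n = 3 per line; 95% interval 1.74 to 2.62), a 4.53-fold higher level, and its adjusted p was 5.14e-05 by the edgeR test. Without SW620 replicate 3 the log2 fold change was 2.03 with an adjusted p of 3.81e-05. Over all genes tested, 11.0% passed with a change of at least 4-fold in either direction. In PEO4, VEGFA was higher than in either SW line, at 293, 254 and 339 CPM in control and 266, 289 and 342 CPM with TGF-β.

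VEGFB (ENSG00000173511, chr11:64234538-64238793, + strand) encodes a ligand of FLT1 and NRP1 that is weakly angiogenic. It measured 47.1, 44 and 51.5 CPM in SW480 and 22, 24.9 and 35.3 CPM in SW620, so the lines did not overlap. The log2 fold change was -0.77 ± 0.20 (SE, n = 3 per line; 95% interval -1.22 to -0.33; adjusted p = 0.0159, edgeR), 1.71-fold lower in SW620. This was the smallest change among the 5 called genes, and it missed the threshold without SW480 replicate 1 (adjusted p = 0.0734), without SW480 replicate 3 (0.0783) and without SW620 replicate 1 (0.111), as it did when tested against a 2-fold change. Over its 17 alternative settings the adjusted p ran from 8.34e-05 to 1. Without SW620 replicate 3 its log2 fold change was -1.01 (adjusted p = 0.00176).

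VEGFA and VEGFB therefore differed between the lines in opposite directions. The ratio of VEGFA to VEGFB counts within a library needs no scaling between libraries. It was 0.71, 0.849 and 0.765 in SW480 and 7.59, 5.19 and 5.53 in SW620. VEGFB counts exceeded VEGFA counts in every SW480 library, and the reverse held in every SW620 library. The mean log2 ratio differed by 2.96, or 7.79-fold, between lines. A two-sided exact permutation test gave p = 0.1, the smallest that 3 against 3 allows (adjusted p = 0.2 over 4 ratio tests).

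PGF (ENSG00000119630, chr14:74941834-74955784, - strand), placental growth factor, binds FLT1. PGF had 14, 14 and 21 counts in SW480 and 15, 8 and 12 counts in SW620, and the lines overlapped. Its log2 fold change of -0.57 ± 0.47 (SE, n = 3; 95% interval -1.63 to 0.49; adjusted p = 0.406, edgeR) did not pass, and the interval spans changes above 2-fold downward. VEGFC (ENSG00000150630, chr4:176683538-176792727, - strand), the lymphangiogenic ligand, had 0 counts in the 3 SW480 libraries. In SW620 it had 0, 0 and 3 counts, and the 3 counts lay in replicate 3, where an estimated 1.52 counts could be carried over from PEO4. In PEO4 control VEGFC had 111, 109 and 159 counts, at least 43.4-fold above SW480 when SW480 is set to the floor of 3 counts per library. VEGFC was thus detected in the ovarian line and not above the floor in either colorectal line.

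**Figure D1:**
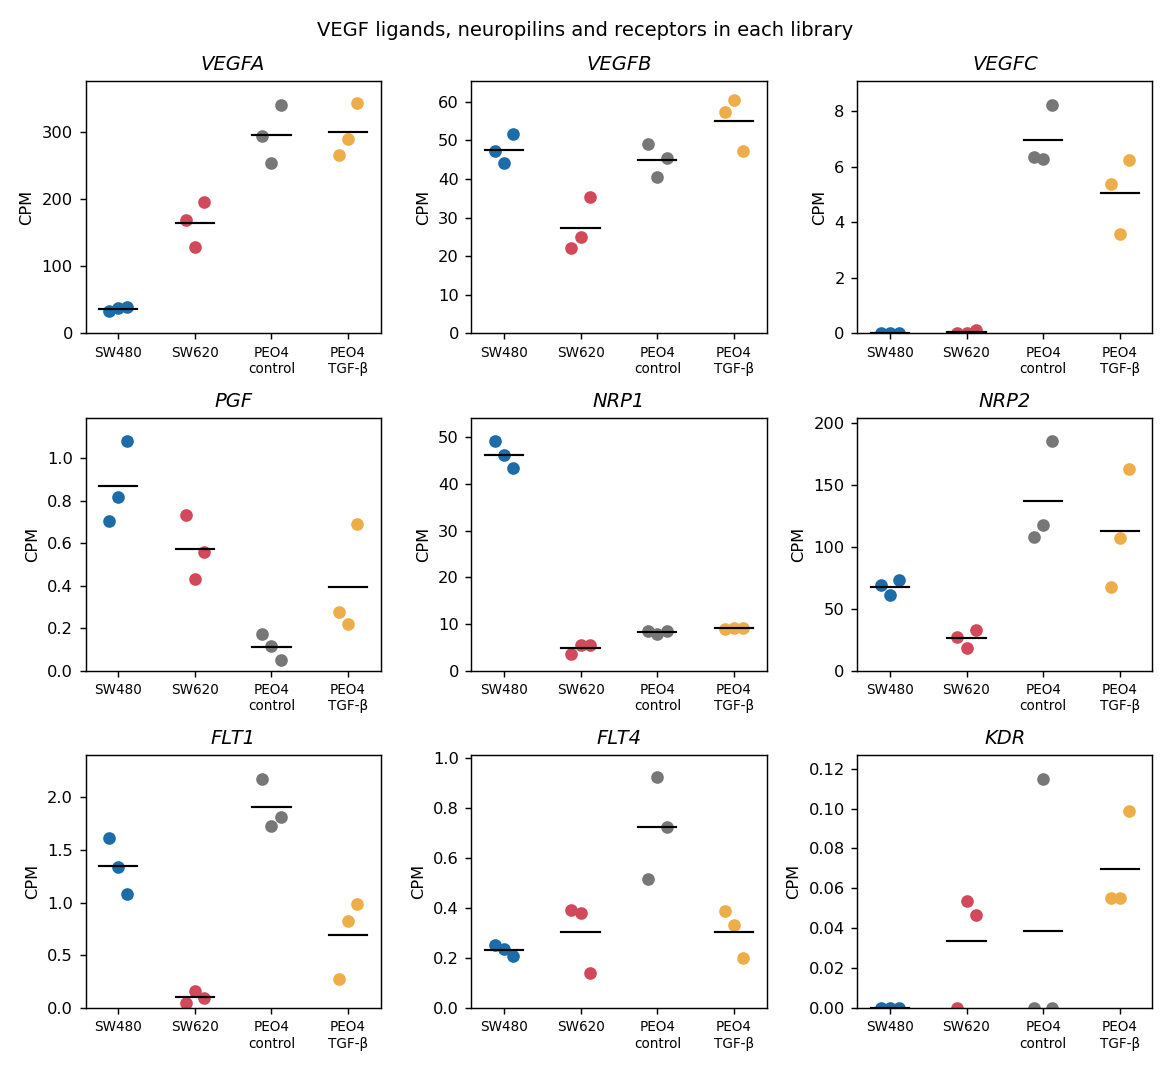
Level of each of the 9 genes in each of the 12 libraries, as TMM-scaled CPM on a linear axis that starts at 0, 1 panel per gene; points are libraries and lines are group means. VEGFA points of SW620 (129 to 195 CPM) lie above those of SW480 (33.4 to 39.4 CPM), and NRP1 points lie the other way round.

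Among the well-covered members NRP1 gave the largest change, and NRP2 changed less than VEGFA. NRP1 (ENSG00000099250, chr10:33177492-33336262, - strand), co-receptor for VEGFA and semaphorin 3A, stood at 49.2, 46.1 and 43.4 CPM in SW480 and at 3.45, 5.54 and 5.43 CPM in SW620. The highest SW620 library was far below the lowest SW480 library. NRP1 was 9.47-fold lower in SW620 (log2 fold change -3.24 ± 0.22 SE, n = 3 per line, 95% interval -3.73 to -2.75, adjusted p = 1.09e-05 in edgeR's test). The value without SW620 replicate 3 was -3.35 (adjusted p = 1.01e-05). Of the exon bases of NRP1, 4.87% overlap an antisense gene, and 1.3% of those of VEGFA and 1.06% of those of NRP2 do so too. Strand use in counting is not given in the sources used here, so reads from those stretches are uncertain.

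NRP2 (ENSG00000118257, chr2:205681990-205798133, + strand) is the co-receptor for VEGFC and semaphorin 3F. It was at 69.5, 60.9 and 73.5 CPM in SW480 and 27.2, 18.6 and 33.1 CPM in SW620, again with no overlap. The log2 fold change was -1.35 ± 0.22 (SE, n = 3; 95% interval -1.84 to -0.86; adjusted p = 0.00149, edgeR), 2.55-fold lower in SW620, and -1.56 without SW620 replicate 3 (adjusted p = 0.000487). Tested against a change of 2-fold rather than none, NRP2 missed the threshold (adjusted p = 0.137); it passed in the other 16 alternative settings, with adjusted p from 2.24e-07 upward.

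NRP1 was lower by more than NRP2. The within-library ratio of NRP1 to NRP2 counts was 0.708, 0.757 and 0.59 in SW480 and 0.128, 0.3 and 0.165 in SW620, with no overlap. The mean log2 ratio was 1.88 lower in SW620, as the difference of -1.88 with an exact two-sided permutation p of 0.1 (adjusted p = 0.2), again the smallest possible. NRP2 counts exceeded NRP1 counts in all 12 libraries, most in PEO4 control, where the ratio was 0.0795, 0.0667 and 0.0457.

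**Figure D2:**
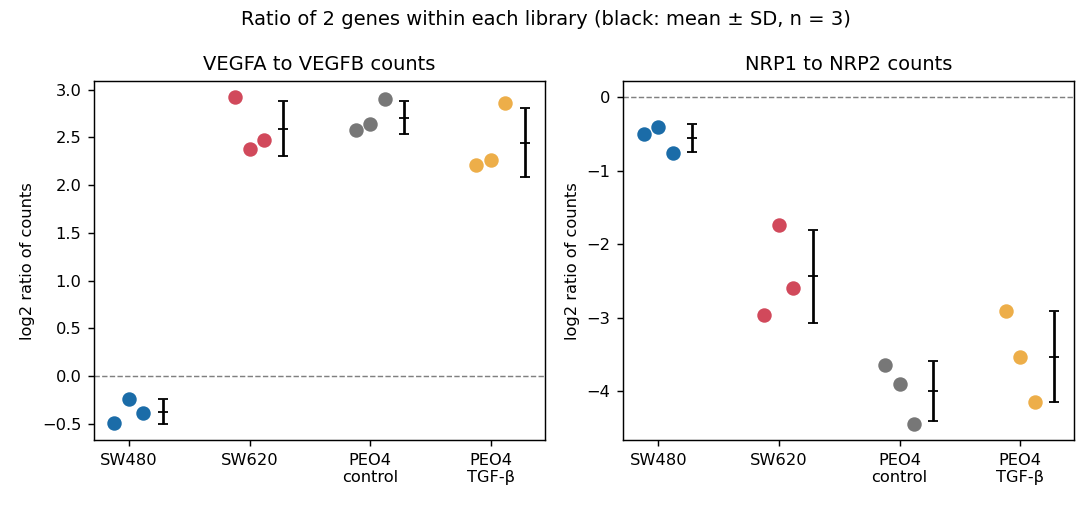
Within-library ratios of VEGFA to VEGFB counts and of NRP1 to NRP2 counts on a log2 axis, with 1 point per library and, in black, the mean ± SD of each group. The VEGFA to VEGFB ratio was 0.71 to 0.849 in SW480 and 5.19 to 7.59 in SW620, and the NRP1 to NRP2 ratio was 0.59 to 0.757 and 0.128 to 0.3.

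The receptor kinases were all low in these carcinoma lines. FLT1 (ENSG00000102755, chr13:28300344-28495145, - strand), a high-affinity VEGFA receptor whose soluble form traps ligand, had 32, 23 and 21 counts in SW480 and 1, 3 and 2 counts in SW620. All 3 SW620 libraries were at or below the floor. The summed counts were 76 against 6, a ratio of 13.6 with an exact 95% interval of 5.98 to 38.3 that covers counting error only. The edgeR log2 fold change was -3.65 ± 0.59 (SE, n = 3 per line; 95% interval -4.98 to -2.32; adjusted p = 0.00154), and -3.61 without SW620 replicate 3 (adjusted p = 0.00333). FLT1 reached the test only through its SW480 counts, so its call is not evidence by itself. Counts this low leave the size of the change uncertain.

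FLT4 (ENSG00000037280, chr5:180601506-180649624, - strand), the lymphatic endothelial receptor for VEGFC, had 5, 4 and 4 counts in SW480 and 8, 7 and 3 in SW620. Its summed counts gave a ratio of 1.29 (exact 95% interval 0.597 to 2.86), and the lines overlapped. KDR (ENSG00000128052, chr4:55078259-55125595, - strand), the main signalling receptor for VEGFA on endothelium, had 0 counts in every SW480 library and 0, 1 and 1 counts in SW620. In PEO4 it had 0, 2 and 0 counts in control and 1, 1 and 2 counts with TGF-β. KDR was therefore at or below the floor of 3 counts in all 12 libraries, and no difference was detectable at this depth.

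**Figure D3:**
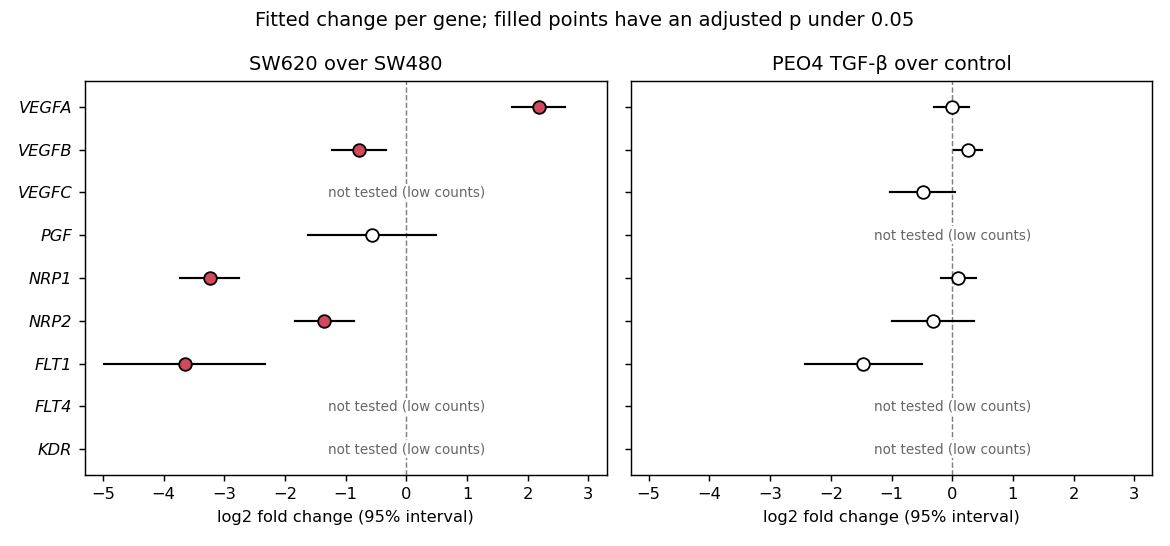
Log2 fold changes with 95% intervals from edgeR for the members that could be tested, for SW620 against SW480 and for PEO4 with TGF-β against PEO4 control. In the SW comparison VEGFA lies at 2.18 and NRP1 at -3.24, whereas in the PEO4 comparison VEGFA lies at -0.01 and FLT1, at -1.46, lies furthest from 0.

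In PEO4, none of the 6 members tested after TGF-β passed the adjusted threshold. The same edgeR test called 2.26% of 19064 genes, 1.27% higher and 0.991% lower. At an unadjusted p under 0.05 there were 2 members, VEGFB and FLT1, against 16.7% of all genes. DESeq2 and limma-voom also called 0 members. A fit with a block for replicate number called 2, NRP2 and FLT1, and the fit with no count filter called FLT1. Both settings also raised the calls over all genes, as given at the end. The TGF-β comparison shares no library with the SW comparison.

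VEGFA did not separate by treatment: its level was 295 ± 42.5 CPM in control and 299 ± 39 CPM with TGF-β (mean ± SD, n = 3 each). Its log2 fold change was -0.01 with a 95% interval of -0.29 to 0.27 (adjusted p = 0.978, edgeR), an interval that holds no 2-fold change. VEGFB was at 49, 40.6 and 45.4 CPM in control and 57.2, 60.3 and 47.2 CPM with TGF-β, with overlap between the groups (log2 fold change 0.25 ± 0.10 SE, adjusted p = 0.257, edgeR). VEGFC was at 6.36, 6.28 and 8.23 CPM in control and 5.39, 3.58 and 6.22 CPM with TGF-β. The lowest control library of VEGFC was only just above the highest treated library, and the log2 fold change of -0.48 ± 0.24 (SE, n = 3) had an adjusted p of 0.347 (edgeR).

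NRP1 in PEO4 lay in a narrow range, at 8.54, 7.83 and 8.48 CPM in control and 8.92, 9.2 and 9.18 CPM with TGF-β. Every treated library was above every control library, but the log2 fold change was only 0.10 (95% interval -0.19 to 0.40; adjusted p = 0.741, edgeR). NRP2 varied widely, with 108, 118 and 186 CPM in control and 67.4, 107 and 163 CPM with TGF-β. Replicate 3 was the highest NRP2 library in both groups, and the groups overlapped. The NRP2 log2 fold change was -0.32 with a standard error of 0.30 (adjusted p = 0.647, edgeR). Among the 6 tested members, VEGFC and FLT1 did not overlap and were lower with TGF-β, and NRP1 did not overlap and was higher. Of all genes tested, 8.48% did so downward and 11.6% upward.

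FLT1 gave the largest change among the 6 members tested after TGF-β. It had 38, 30 and 35 counts in control and 5, 15 and 20 counts with TGF-β, and each treated library was below each control library. FLT1 passed the count filter through its control libraries, which the treated ones alone would not have met, so its size and non-overlap carry that selection. The log2 fold change was -1.46 ± 0.43 (SE, n = 3; 95% interval -2.43 to -0.50; adjusted p = 0.132, edgeR). Without TGF-β replicate 1, the library with 5 counts, it was -1.10 (adjusted p = 0.289). The fit without a filter on low counts gave FLT1 an adjusted p of 0.0283, the lowest of its 16 alternative settings, which reached up to 1, and 14 of them missed the threshold. The authors' deposited table gives FLT1 a log2 fold change of -1.48 with an adjusted p of 0.0648 in this comparison, so it missed the threshold there too.

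PGF and FLT4 were too low for the test in PEO4. PGF had 3, 2 and 1 counts in control and 5, 4 and 14 counts with TGF-β, and 1 treated library held most of them. FLT4 had 9, 16 and 14 counts in control and 7, 6 and 4 counts with TGF-β. The summed counts of PGF were 3.67 times higher with TGF-β (exact 95% interval 1.45 to 11) and those of FLT4 were 2.4 times higher in control (1.32 to 4.52), intervals that leave out the spread between libraries.

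For SW620 against SW480 the authors' deposited table gives log2 fold changes of 2.18 for VEGFA, -0.78 for VEGFB, -3.25 for NRP1 and -3.74 for FLT1. The adjusted p-values in the authors' deposited table are 4.61e-24, 0.0037, 1.32e-39 and 6.35e-05 in that order. Directions and calls of these 4 genes are the same as from the counts; the p-values there come from another test.

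The order of levels across the 4 groups differed by gene. For VEGFA both PEO4 groups, which overlapped, were above SW620, and SW620 was above SW480. For NRP1 the order was SW480 (46.2 ± 2.9 CPM, SD, n = 3), PEO4 with TGF-β (9.1 ± 0.156), PEO4 control (8.28 ± 0.394) and SW620 (4.81 ± 1.18), with no overlap between neighbours. For NRP2 both PEO4 groups and SW480 overlapped as neighbours, and SW620 was lowest with no overlap. VEGFB likewise overlapped between TGF-β-treated PEO4, SW480 and PEO4 control, and SW620 lay below all of them. FLT1 was highest in PEO4 control (1.91 ± 0.24 CPM), then SW480 (1.34 ± 0.265), TGF-β-treated PEO4 (0.696 ± 0.373) and SW620 (0.101 ± 0.0566). SW620 thus had the lowest mean level of 4 of the 9 genes, VEGFB, NRP1, NRP2 and FLT1. SW480 had the lowest mean of 4 others, VEGFA, VEGFC, FLT4 and KDR, of which only VEGFA was well above the floor there. Lines and media differ together here, so a difference between PEO4 and the SW lines cannot be told apart from the medium.

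Between genes, levels were compared per kilobase of exon. With the union of annotated exons as length, the mean VEGFB level in SW480 was 30.8 CPM per kilobase against 2.54 for VEGFA, 4.89 for NRP2 and 4.01 for NRP1. In SW620 it was 17.7 for VEGFB, 11.4 for VEGFA, 1.89 for NRP2 and 0.417 for NRP1. With the longest coding transcript as length the SW620 values were 19.9 for VEGFB and 46.4 for VEGFA. So VEGFB stood above VEGFA in SW480 under both lengths (34.4 against 10.4 with the coding transcript), whereas their order in SW620 and in both PEO4 groups turned with the length used. FLT1 was at 0.107 CPM per kilobase in SW480 and 0.00802 in SW620, far below VEGFA, VEGFB and both neuropilins under either length. PGF, at 0.145 CPM per kilobase in SW480, was close to FLT1 there.

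Among genes with at least 10 CPM on average, those whose log2 level over the 12 libraries was most like VEGFA were LARP4B (Pearson r = 0.9927), MOCOS (0.9924) and SGCE (0.989). For VEGFB they were BTBD6 (0.9875), MIIP (0.9867) and LPAR2 (0.9789), and for NRP1 GNAL (0.9865), NFATC2 (0.9859) and WBP4 (0.9852). For NRP2 they were TIMP3 (0.9689), TBC1D2 (0.9661) and PTPRS (0.9648). The 12 points share 3 lines, so these values describe the pattern between lines. As an example, LARP4B averaged 63.7 CPM in SW480, 154 in SW620, 217 in PEO4 control and 202 with TGF-β, so it too was lowest in SW480, intermediate in SW620 and highest in PEO4.

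Several semaphorins and plexins, the partners of neuropilins outside the VEGF family, were higher in SW620. Of 13 class 3 semaphorins, plexins and GIPC1, an adaptor of neuropilin tails, 6 were higher and 1 was lower in SW620, and 6 did not pass; over all genes 13.5% were higher and 17.0% lower. Their median log2 fold change was 1.02, against 0.03 over all genes. PLXNA2, a plexin co-receptor, was at 0.604, 0.818 and 0.617 CPM in SW480 and 12.8, 17.2 and 18.2 CPM in SW620 (log2 fold change 4.58 ± 0.28 SE, n = 3, adjusted p = 7.86e-06, edgeR). SEMA3F, the NRP2 ligand, was at 10.4, 14.9 and 11.9 CPM in SW480 and 66.9, 61.3 and 90.2 CPM in SW620 (log2 fold change 2.58, adjusted p = 3.52e-05). SEMA3D was at 2.21 to 4.79 CPM in SW480 and at 32.6 to 36.1 CPM in SW620 (log2 fold change 3.21, adjusted p = 4.06e-05) and SEMA3G had a log2 fold change of 2.48 (adjusted p = 0.00017). PLXNA1, the 1 gene called lower, averaged 424 CPM in SW480 and 184 CPM in SW620 (log2 fold change -1.18, adjusted p = 0.00126, edgeR). SEMA3B, SEMA3C and SEMA3E were also lower without overlap but did not pass, beside 24.0% of all genes lower without overlap. SEMA3E had 9, 9 and 12 counts in SW620 and passed the count filter through SW480, so its non-overlap carries that selection. The whole list summed to 962 to 992 CPM in SW480 and 985 to 1180 CPM in SW620. SEMA3A, a ligand of NRP1, averaged 39 CPM in SW480 and 211 CPM in SW620 (log2 fold change 2.46, adjusted p = 0.000126, edgeR). Higher transcripts of SEMA3A, SEMA3D, SEMA3F and SEMA3G were thus measured beside lower transcripts of both neuropilins in SW620.

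In PEO4 with TGF-β, 3 of the 12 tested genes of that list rose and 1 fell, and 8 did not pass, against 1.27% of all genes rising and 0.991% falling. PLXND1, the receptor of semaphorin 3E, was at 60.4, 46.9 and 66 CPM in control and 147, 171 and 213 CPM with TGF-β (log2 fold change 1.59 ± 0.16 SE, n = 3, adjusted p = 0.00233, edgeR). SEMA3C rose as well, from 29.6, 14.8 and 20 CPM to 56.4, 49.1 and 65.6 CPM (log2 fold change 1.39, adjusted p = 0.0145), though it missed the threshold without control replicate 2 (adjusted p = 0.0605) or TGF-β replicate 1 (0.0536). SEMA3A, a ligand of NRP1, fell from 37.6, 44.6 and 48 CPM to 16.3, 21.6 and 17.7 CPM (log2 fold change -1.26, adjusted p = 0.0029). PLXNA3 had a log2 fold change of 0.38 (adjusted p = 0.0413), and its call was lost without any 1 library other than control replicate 1 (adjusted p = 0.0982 to 0.2). The median of the list was 0.13, against -0.02 over all genes, and whether it differs from the VEGF members was not tested.

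Of 6 genes, VEGFD and those that process VEGF ligands, 4 could be tested in the SW lines. None of the 4 was higher in SW620 and 3 were lower, beside 17.0% lower and 13.5% higher over all genes. The lower genes were CCBE1 (log2 fold change -2.50, adjusted p = 0.00799), which aids VEGFC maturation, and the proprotein convertases PCSK5 (-1.48, 0.00019) and FURIN (-1.05, 0.00794), with edgeR's adjusted p. CCBE1 had 17, 30 and 23 counts in SW480 and 6, 4 and 3 in SW620, so it reached the test only through SW480, like FLT1, and had to differ. FURIN missed the threshold without SW620 replicate 1 (adjusted p = 0.0687). The list's median was -1.27. VEGFD was too low to test, with at most 9 counts in any SW library and at most 1 in PEO4. ADAMTS3 was too low in the SW lines, with at most 4 counts, whereas it had 339 to 476 counts in the PEO4 libraries. In PEO4 none of 5 tested genes passed (edgeR), and 2 had an unadjusted p under 0.05, beside 16.7% of all genes.

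Oxygen sensing, which is known to control VEGFA transcription, gave a mixed list in SW620, with 2 genes higher, 2 lower and 4 not past the threshold of 8, beside 30.5% of all genes called. The part of these genes in the VEGFA difference was not tested. EPAS1, which encodes HIF-2α, stood at 425, 196 and 350 CPM in SW480 and 2.19, 3.66 and 0.557 CPM in SW620. The EPAS1 log2 fold change was -7.23 ± 0.62 (SE, n = 3, adjusted p = 4.12e-05, edgeR). With 12 counts in SW620 replicate 3, EPAS1 passed the count filter through its SW480 libraries. The SW620 libraries alone would not have met it, so its call and size carry that selection. HIF1A had a log2 fold change of -0.47 (adjusted p = 0.116). EGLN3 (1.36, adjusted p = 0.00693) and VHL (1.03, 0.00466), which mark HIF for destruction, were higher, and EGLN2 was lower (-0.85, 0.023). The EGLN2 call was lost in 7 of 17 alternative settings, among them total-count scaling (adjusted p = 0.0686), upper quartile scaling (0.0534) and leaving out any SW480 library (0.0532 to 0.0604) or SW620 replicate 1 (0.112). Of the 8 genes, none passed in PEO4 with TGF-β (edgeR), and 2 had an unadjusted p under 0.05, beside 16.7% of all genes. There HIF1A was at -0.18 (adjusted p = 0.256), EPAS1 at -0.22 (0.4) and VHL at -0.13 (0.584).

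Genes known as HIF targets, a class to which VEGFA belongs, did not share a direction in SW620. Of 12 genes, 3 were higher, 2 lower and 7 did not pass (30.5% of all genes were called), with a median log2 fold change of 0.27. CA9, a carbonic anhydrase, was at 0.654, 1.17 and 0.823 CPM in SW480 and 30, 28.8 and 49.6 CPM in SW620 (log2 fold change 5.38 ± 0.32 SE, n = 3, adjusted p = 7.33e-06, edgeR). P4HA1, a collagen hydroxylase, was higher (1.34, adjusted p = 0.00252), whereas NDRG1 (-1.27, 0.000562) and the peptide hormone gene ADM (-1.24, 0.029) were lower. ADM missed the threshold without SW480 replicate 1 or 3 or SW620 replicate 1 or 2 (adjusted p = 0.0523 to 0.123). In PEO4 with TGF-β, 2 of 11 tested genes fell and none rose, ANGPTL4 (-0.97, adjusted p = 0.041) and PDK1 (-0.58, adjusted p = 0.0404). Over all genes tested in PEO4, 0.991% fell and 1.27% rose. Leaving out control replicate 2 or 3 or TGF-β replicate 1 or 2 ended both calls (adjusted p = 0.0576 to 0.185), and leaving out TGF-β replicate 3 ended that of ANGPTL4 (0.106).

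Among transducers downstream of VEGF receptors, SW620 had 1 higher, 2 lower and 8 not past the threshold of 11 tested, a share near the 30.5% called over all genes. NOS3, endothelial nitric oxide synthase, was at 14.3, 11.6 and 9.51 CPM in SW480 and 0.438, 1.13 and 0.928 CPM in SW620 (log2 fold change -3.80 ± 0.37 SE, n = 3, adjusted p = 8.75e-05, edgeR). With 9 counts in SW620 replicate 1, NOS3 passed the count filter through its SW480 libraries. The SW620 libraries alone would not have met it, so the call and size for NOS3 carry that selection. FYN, a Src-family kinase, was higher (1.00, adjusted p = 0.00272), and PTPRJ, a receptor phosphatase, was lower (-0.64, adjusted p = 0.031). PTPRJ missed the threshold without SW480 replicate 1 or 3 or either of SW620 replicates 1 and 2 (adjusted p = 0.0745 to 0.177). In PEO4 none of 12 passed (edgeR), and 3 had an unadjusted p under 0.05, beside 16.7% of all genes.

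**Figure D4:**
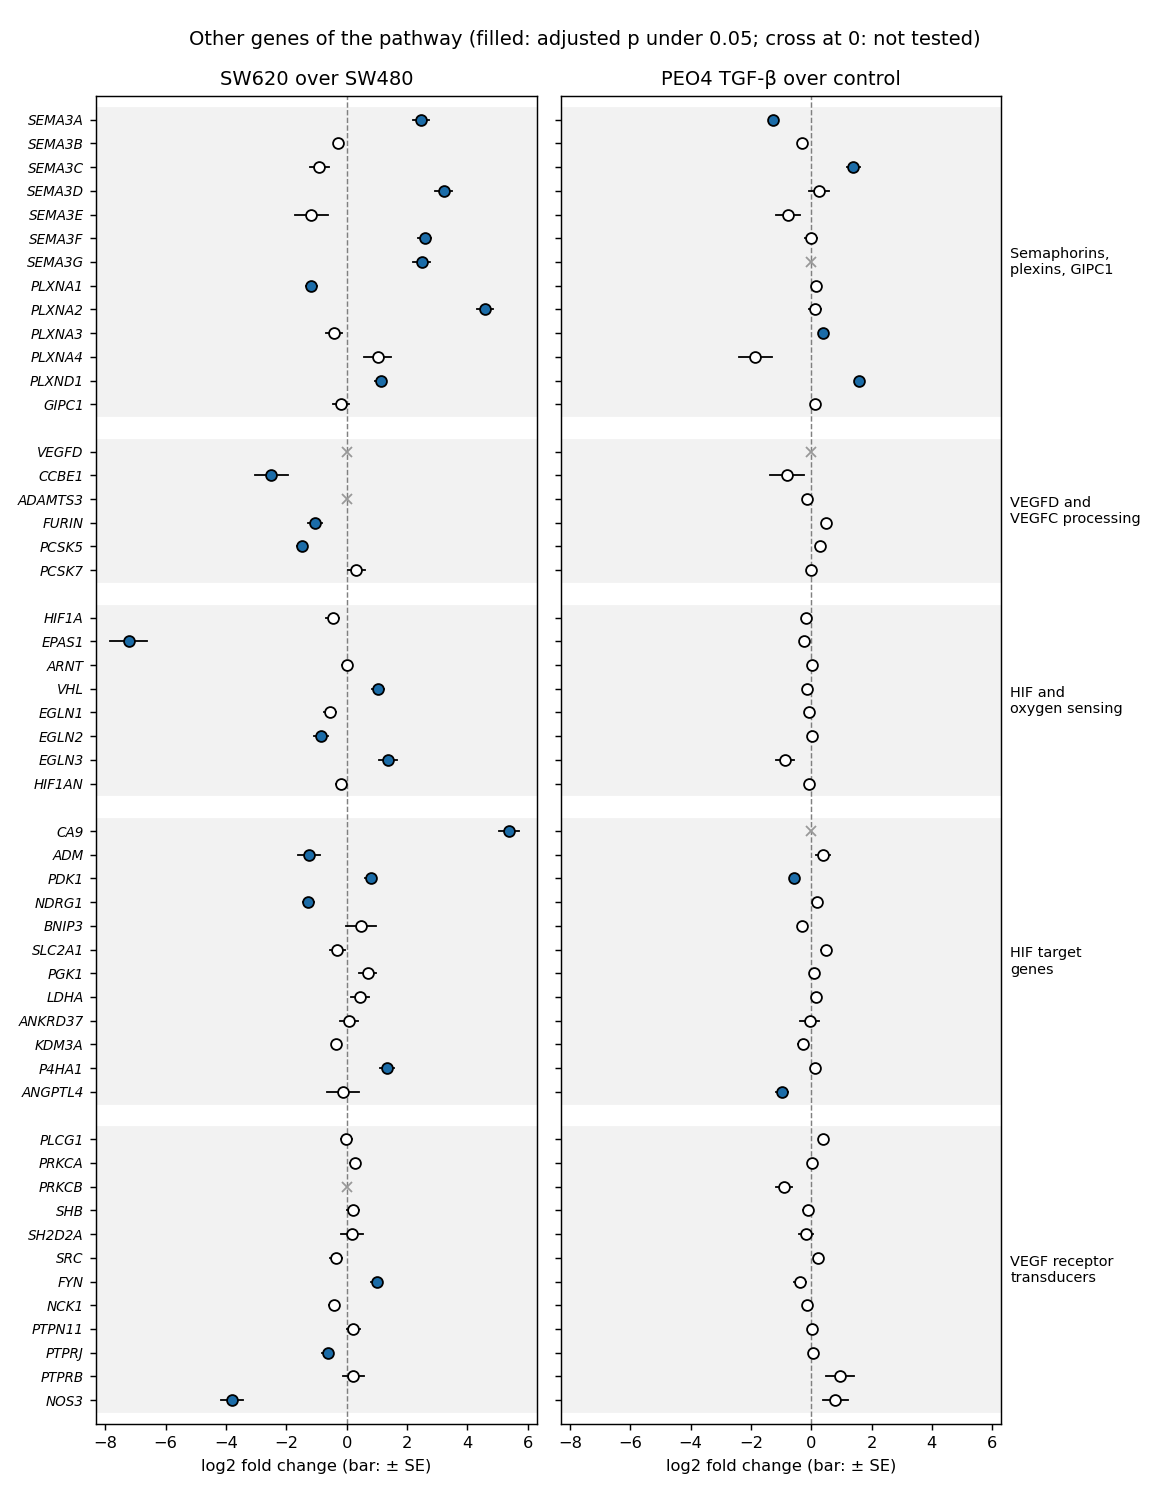
Log2 fold changes of the genes of the VEGF pathway lists, 1 row per gene and 1 panel per comparison, with filled points for genes past the adjusted threshold, bars for ± SE and a cross for genes not tested. In the SW comparison EPAS1 lies furthest left, at -7.23, and CA9 furthest right, at 5.38.

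Markers of endothelial cells, which carry these receptors in tissue, were summed to check the cultures. The 11 markers summed to 15.4 to 25.8 CPM in SW480, 10.7 to 13.6 in SW620, 16.7 to 25.6 in PEO4 control and 15.6 to 20.7 with TGF-β. No library of SW480 had over 3 counts of CDH5, EMCN or ERG, and none of SW620 had over 3 counts of EMCN, ERG, ROBO4 or TIE1. The ovarian line differed, since only EMCN stayed at or below 3 counts in every PEO4 library. ERG and TIE1 had the most counts of the list there. ERG counts ranged from 136 to 164 in untreated libraries and from 92 to 111 in treated ones. For TIE1 the ranges were 57 to 185 and 103 to 177. Of 5 testable markers in the SW lines, PECAM1 was higher in SW620 (log2 fold change 4.07, adjusted p = 0.00128), ROBO4 (-3.30, 0.00564) and EGFL7 (-1.83, 0.00173) were lower, and 2 did not pass. Over all genes 30.5% were called. PECAM1 had 2, 3 and 5 counts in SW480 and ROBO4 had 2, 1 and 3 in SW620, so each reached the test only through the other line and had to differ; ROBO4 missed the threshold without SW480 replicate 1 (adjusted p = 0.0525). In PEO4 none of 8 passed (edgeR), and 3 had an unadjusted p under 0.05, beside 16.7% of all genes. EGFL7 alone held most of the sum in SW480, at 14.1, 9.58 and 20.1 CPM against 4.52, 3.28 and 4.36 CPM in SW620, while PECAM1 went the other way, so the lower sum in SW620 does not stand for the whole list. The part of these markers in the differences of FLT1 and NRP1 was not tested.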

How the data were processed

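The deposited counts are whole-number reads per Ensembl gene, made by the authors. The submitters' processing notes name Trimmomatic 0.36, STAR 2.5.2b, featureCounts, Subread 1.5.2, DESeq2 and GRCh38, with no roles; the annotation and strand setting are not given in the sources used here. The authors' deposited comparison tables hold log2 fold changes and, per the file headers, p-values and adjusted p-values; 12 further per-sample columns were not used. Rows without a symbol (485 genes) held 0.034% of the counts.

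The SW lines and the PEO4 groups were fitted separately, 6 libraries each, in edgeR 4.0.16 (R 4.3.3, limma 3.58.1): filterByExpr, TMM scaling and the two-sided quasi-likelihood test, Benjamini-Hochberg adjusted over all genes at a threshold of 0.05. DESeq2 1.42.0 and limma-voom served as alternatives. The scripts were tested on simulated data. The spread measured is that between these cultures, and counting intervals cover counting error only, since the sources used here name no molecular identifiers. Positions and lengths come from GENCODE 29, in which 56898 of the 57500 gene IDs were found and which the authors may not have counted against. Promoter sequences come from RefSeq.

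Lists of semaphorins and plexins, ligand processing, oxygen sensing, HIF targets, transducers and endothelial markers were described by counts and medians. All 9 members were named, along with VEGFD, HIF1A, EPAS1 and VHL, up to 4 called genes per list and comparison by size of change, and the 3 genes most like VEGFA, VEGFB, NRP1 and NRP2. PLXNA1, SEMA3B, SEMA3C, SEMA3E, ADAMTS3, ERG and TIE1 were named as well, to give the other direction or the other line. SEMA3A was named in the SW lines as a ligand of NRP1. The members and lists were chosen with earlier results of these data known. The share of carried-over counts was estimated from genes above 20 CPM in 1 kind of line with at most 1 count in most other libraries, a step added after seeing the data.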

Additional observations from a re-analysis of the deposited data

How the results depend on the processing

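VEGFA and NRP1 passed in SW620 against SW480 in every alternative. FLT1 passed in each that could test it, but under the main count filter it was tested only through SW480, so these passes add no support. VEGFA ranged from 2.03 to 2.37 on the log2 scale, NRP1 from -3.35 to -3.02 and FLT1 from -4.06 to -3.30; asking for 10 counts in every library left FLT1 untested. Of the 5 called members, 3 passed when tested against a 2-fold change, and 4 to 5 with 1 library left out. All genes called numbered 6385, 2504 against a 2-fold change, 10670 with a replicate block, and 4253 (without SW480 replicate 1) to 7419 (without SW620 replicate 3) with 1 library left out.

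In PEO4 the 431 calls over all genes became 1457 with no count filter, 923 with DESeq2, 9 against a 2-fold change, 165 with all 12 libraries in 1 model, and 72 (without control replicate 2) to 1080 (without control replicate 1) with 1 library left out. No member passed with 1 library left out, and 1, FLT1, passed with no count filter. The VEGFA log2 fold change changed sign around 0, to 0.015 with no filter, 0.0023 with DESeq2, 0.019 with all 12 libraries, and -0.13 to 0.11 with 1 library left out. For the calls that moved, the cause was not tested.

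The labels number the replicates, but same-numbered libraries deviated together unevenly. The correlations for numbers 1, 2 and 3 were 0.016, 0.67 and 0.57 in the SW lines and 0.29, -0.14 and 0.48 in PEO4. Between libraries of different numbers they ran from -0.631 to 0.268 in the SW lines and from -0.485 to 0.241 in PEO4. Numbers 2 and 3 in the SW lines and 1 and 3 in PEO4 thus lay above every differently numbered pair. Whether the numbers pair the libraries is not settled by these values, and the main fit has no pairing. With the replicate block the SW members called were 5, and 2102 genes and 2 members were called in PEO4: NRP2 (log2 fold change -0.36, adjusted p = 0.0227) and FLT1 (-1.52, adjusted p = 0.0397), both by edgeR. Of the list genes, calls missed the threshold in 8 alternatives for PLXNA3, 7 each for ANGPTL4, PDK1 and EGLN2, 6 for PTPRJ, 5 for ADM 3 for SEMA3C, 2 for FURIN and 1 each for PLXND1, SEMA3A, EGLN3, VHL, FYN, NDRG1, P4HA1 and ROBO4, and HIF1A passed in the SW lines in 4. FLT4, KDR and PGF in PEO4 and VEGFC, FLT4 and KDR in the SW lines were limited by depth.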
